A study of Mus musculus with 28 samples.

Results

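BRAF V600E was examined in colon organoids with intact *Trp53* after recombination, by comparing the levels of all genes between BAC and AC organoids that had both been treated with 4-HT. The comparison used the 6 samples of the series that carried these genotypes and this treatment, out of 28 samples in all, and these 6 came from 3 of the 7 donor mice. Organoids were grown from colon epithelium of C57BL/6N mice, and 4-HT (4-hydroxytamoxifen) switches on the CreERT2 recombinase. AC organoids carried *Apc* flox/flox and the Villin::CreERT2 transgene. BAC organoids carried the same alleles and *Braf* floxV600E/+ in addition, so that both genotypes lose *Apc* when Cre is active and only BAC organoids switch 1 *Braf* allele to the mutant form. The *Trp53* gene had no engineered allele in either genotype. The Villin promoter limits Cre to epithelium. The dose of 4-HT was 3.5 µM over 24 hours, with RNA taken 3 days after that, and other cultures of the same lines received EtOH, the vehicle. The 4 BAC samples were duplicates 1 and 2 of lines Col286 and Col291, and values are given in that order below. The 2 AC samples were duplicates 1 and 2 of line Col288. A line is 1 donor mouse, and the duplicates are cultures of the same donor at different passages. The p-values measured the spread within groups of genotype and treatment, shared over the series. That spread holds donor differences in groups with 2 donors, and none from AC. Since AC came from 1 donor, the *Braf* allele and the donor cannot be told apart in this comparison. The same lines with EtOH were therefore read too, and for a gene that passed, an EtOH difference of 50% or more of its 4-HT difference is given beside it.

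BRAF is a kinase that carries the signal of RAS to MEK and on to ERK, and the V600E form signals without RAS. ERK in turn switches on genes for its own inhibitors, among them phosphatases of the DUSP family and Sprouty proteins, together with transcription factors of the ETS and AP-1 families. Loss of *Apc* keeps beta-catenin in the cell and drives WNT target genes, the program of intestinal stem cells, and the culture medium supplied EGF and WNT ligands to all organoids.

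Between 25570034 and 28959360 reads were counted on genes in the AC samples and between 26808611 and 40068718 in the BAC samples. The totals of BAC duplicate 1 were the highest, at 37438687 and 40068718. Of 7 pan-epithelial markers (*Epcam*, *Cdh1*, *Krt8*, *Krt18*, *Krt19*, *Vil1* and *Cldn7*), all were counted and none passed the test (1 as lower with the replicate block, the fit with the duplicate number as a term), and their summed level was 19200 and 18500 CPM in AC and 16800 to 21900 CPM in BAC. Here CPM are counts scaled to a common library total after TMM normalization. Of 19 markers of fibroblasts, endothelium and immune cells, 4 were in the table (*Itgam*, *Pdgfrb*, *Cd3e* and *Pecam1*), with a summed level of 4.21 and 3.99 CPM in AC and 1.35 to 3.05 CPM in BAC. RNA of the mitochondrial genome made up 1.5% and 2.35% of the counts in AC and 0.677%, 0.958%, 0.535% and 0.767% in BAC. All 4 BAC samples lay below both AC samples. Of the 13 mitochondrial genes, 7 passed the test as lower in BAC (against 5.75% of all genes) and 0 as higher, with a median log2 fold change of -1.36 with 4-HT and of -0.44 with EtOH. The nuclear RNA *Malat1* was also lower, at 272 and 334 CPM in AC against 102, 105, 78.8 and 71.5 CPM in BAC (log2 fold change -1.76, adjusted p = 0.000592, and 0.015 without AC duplicate 2). The part of these differences in the results below was not tested. Lines also differed in sex-linked RNA. *Xist* was at 42.9 and 47.7 CPM in Col286 and at or below 0.108 CPM in Col288 and Col291, while the Y-linked *Ddx3y* was at 25.9 and 24 CPM in Col288, at 24.1 and 27.1 CPM in Col291 and at 0 in Col286. In 2 libraries outside this comparison, duplicate 1 of both PAC lines with 4-HT, *Xist* (25.2 and 22 CPM) and *Ddx3y* (13.8 and 13 CPM) were present together, and the comparison of BPAC with PAC is given with and without them. They also entered the estimate of the spread for BAC against AC, where 1395 genes passed without them and 120 of the 128 genes named here that passed still did. Genes named here are the 204 chosen as described under processing, and not all of them are reported below.

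**Figure D1:**
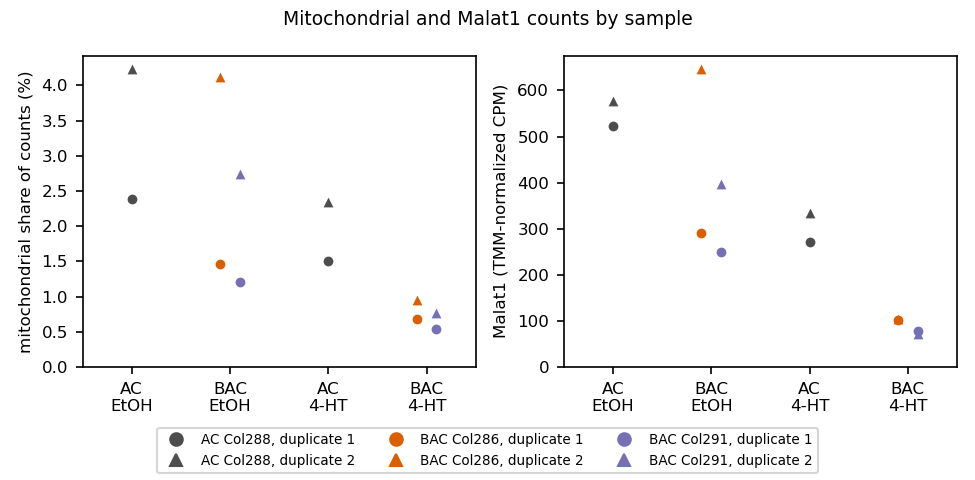
Share of counts from the 13 genes of the mitochondrial genome (left, percent) and level of *Malat1* (right, CPM) in each AC and BAC sample with EtOH and with 4-HT. With 4-HT the 4 BAC samples lie below both AC samples in both measures, at 0.535% to 0.958% against 1.5% and 2.35% for the mitochondrial share. With EtOH the AC and BAC samples overlap in both measures.

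The targeted genes were read first. Gene counts show neither the V600E base change nor the deleted *Apc* exon, so they check the level and not the allele. *Braf* (ENSMUSG00000002413, chromosome 6, 39603237 to 39725463 on the minus strand of GRCm38) was at 22 and 27.3 CPM in AC and at 20.6, 23.9, 20.5 and 24.2 CPM in BAC (log2 fold change -0.15, SE 0.1, adjusted p = 0.326, and -0.27 with EtOH), and its sign turned to 0.02 without AC duplicate 2. *Apc* was at 73.8 and 70.7 CPM in AC and at 53, 70.9, 54.8 and 70.5 CPM in BAC (log2 fold change -0.21, adjusted p = 0.467, and -0.17 with EtOH). For both genes the groups overlapped. *Trp53* was at 193 and 181 CPM in AC and at 215, 197, 226 and 224 CPM in BAC (log2 fold change 0.21, adjusted p = 0.251), with all 4 BAC samples above both AC samples. None of these 3 genes passed the test.

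Of the 13519 genes tested, 1505 (11.1%) differed between BAC and AC with 4-HT at an adjusted p under 0.01, which is the threshold used throughout. A total of 727 genes (5.38%) were higher in BAC and 778 (5.75%) were lower. The genes that were higher differed by less. Their median log2 fold change was 0.59, at a median level of 70.8 CPM, and 93 of them differed by more than 2-fold. The genes that were lower differed by more and were less abundant, with a median log2 fold change of -1.25 at a median level of 7.69 CPM, and 490 of them differed by more than 2-fold. Protein-coding genes made up 98.5% of the higher and 83.5% of the lower genes, against 91.1% of all genes tested. The samples of the 2 groups did not overlap for 6822 genes (50.5%), and for 1503 of the 1505 that passed. Scaling by library size alone shifted the median of all genes by -0.04 and called 421 genes higher and 851 lower. In these 6 samples the first principal component, with 59.6% of the variance, separated AC (-44.7 and -56.1) from BAC (18.4 to 31.6), and the second, with 16.2%, separated duplicate 1 (11.3 to 26.2) from duplicate 2 (-24.8 to -10). With the duplicate number as a replicate block 2811 genes passed, 1476 higher and 1335 lower.

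**Figure D2:**
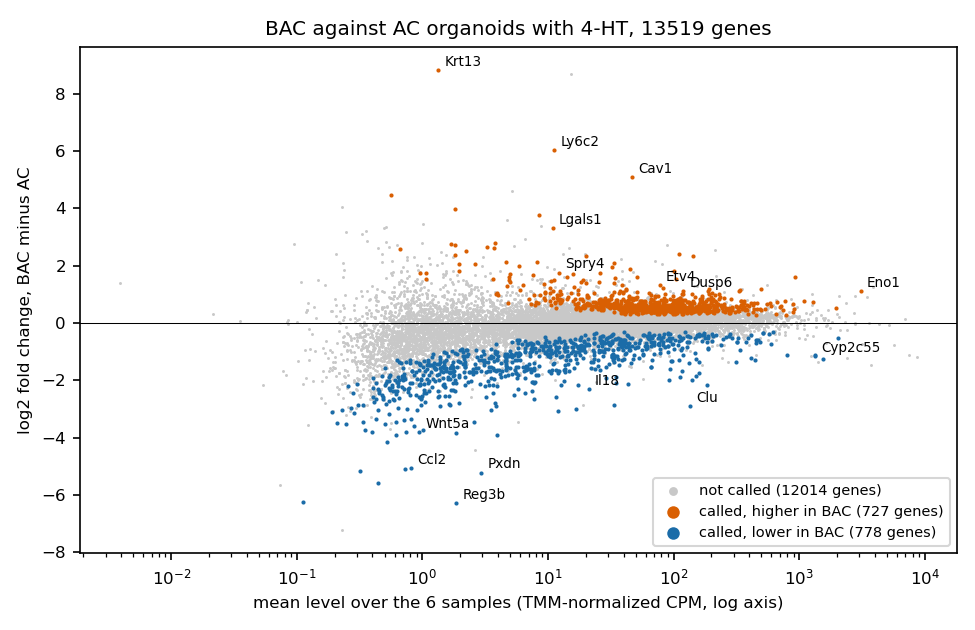
Difference between BAC and AC organoids with 4-HT (log2 fold change, vertical axis) against the mean level over the 6 samples (CPM, log axis) for the 13519 genes tested, with genes past an adjusted p of 0.01 in colour. The 727 genes higher in BAC lie at higher levels and closer to 0 than the 778 genes lower in BAC.

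The count rested on the AC samples more than on the BAC samples. It was 328 without AC duplicate 1 and 394 without AC duplicate 2, where the remaining AC sample is assumed to vary like the other groups, and 938 to 1250 with a BAC sample left out. Without line Col291, 402 genes passed, and without line Col286, 596. Among the 128 genes named here that passed, 40 did so with each of the 6 samples left out in turn. Leaving out AC duplicate 1 ended 73 of these 128 calls, AC duplicate 2 ended 69, Col286 duplicates 1 and 2 ended 32 and 15, and Col291 duplicates 1 and 2 ended 31 and 17. No call of a named gene changed direction in any of the alternatives. The duplicates differed when fitted alone: calls were lost with duplicate 2 alone and kept in part with duplicate 1 alone. Each of these fits leaves 1 AC sample, so their counts are not given.

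Fewer genes passed between the same lines before recombination. With EtOH, 0 genes passed between BAC and AC by the edgeR test and by limma-voom, 14 passed by DESeq2, and 1733 had an unadjusted p under 0.05. Of the 1505 genes, 1312 (87.2%) had the same sign with EtOH, against 70.1% of all genes. Their median difference was 0.79 on the log2 scale with 4-HT and 0.23 with EtOH in the same direction. Since these genes were selected for their 4-HT difference, the first of these medians is raised by the selection, and the pair is a description. For 310 of them (20.6%), more than 50% of the 4-HT difference was already there with EtOH. Whether the 4-HT difference exceeded the EtOH difference was tested as the 4-HT change of BAC minus the 4-HT change of AC, a contrast that shares its 4-HT samples with the level comparison. It passed for 29 genes (0.215%), 9 with a higher and 20 with a lower change in BAC, and for 143 genes with the replicate block. With the 2 cultures of each line summed, none of the 29 passed and 1 other gene did. The 29 genes fell to 2 without AC 4-HT duplicate 1 or without AC EtOH duplicate 2, to 4 without AC EtOH duplicate 1 and to 15 without AC 4-HT duplicate 2.

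ERK switches on the genes of its own inhibitors, and a few of these were higher in BAC. Of 16 phosphatases and inhibitors counted, 2 (12.5%) were higher and none was lower, a share near the 11.1% of all genes that passed (5.38% as higher). The list had a median log2 fold change of 0.29, against 0 over all genes and 0.06 for the list with EtOH. With the replicate block 3 were higher and 1 lower. *Spry4*, a Sprouty protein that damps signaling from growth factor receptors, was at 4.81 and 4.6 CPM in AC and at 16.5, 13.1, 16.1 and 18.2 CPM in BAC. The lowest BAC sample was well above both AC samples (log2 fold change 1.76, SE 0.25, adjusted p = 4.95e-05), and the call held with any sample left out. *Dusp6*, the phosphatase that inactivates ERK in the cytoplasm, was at 62.7 and 72 CPM in AC and at 145, 136, 151 and 147 CPM in BAC (log2 fold change 1.11, SE 0.2, adjusted p = 0.000592, and 0.0219 without AC duplicate 1). With EtOH the differences were 0.58 for *Spry4* and 0.19 for *Dusp6*. *Spred1*, an inhibitor that acts on RAS, was at 55.2 and 73.1 CPM in AC against 85.4, 100, 83.1 and 103 CPM in BAC and did not pass (adjusted p = 0.0164), but did with the replicate block (3.47e-05). Not every member was higher. *Spry2* was at 6.67 and 7.3 CPM in AC and at 7.03, 6.92, 6.79 and 7.77 CPM in BAC (adjusted p = 0.904), overlapping between the groups, and its difference of 0.03 (0.09 with EtOH) turned to between -0.03 and -0.01 with library size alone, without AC duplicate 1 and without Col291 duplicate 2.

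Among 22 transcription factors that respond to ERK, 3 were higher and 2 lower (22.7% in all, against 11.1% of all genes). The ETS factor *Etv4* was at 43.9 and 34.4 CPM in AC and at 101, 86.8, 112 and 87.6 CPM in BAC (log2 fold change 1.31, SE 0.18, adjusted p = 4.76e-05). Its relative *Etv5* was at 28.5 and 30.6 CPM in AC and at 65.8, 56.9, 59.7 and 67.6 CPM in BAC (1.08, SE 0.24, adjusted p = 0.00265), with 0.67 with EtOH. *Fosl1*, which encodes the AP-1 subunit FRA1, was at 22.2 and 24.1 CPM in AC and at 53.6, 44.2, 55.9 and 50.1 CPM in BAC (1.14, SE 0.23, adjusted p = 0.00122). These 3 genes were more than 2-fold higher in both BAC lines, with no overlap. The AP-1 subunit *Jun* went the other way, at 216 and 152 CPM in AC and 77.5, 69.3, 79.7 and 71.1 CPM in BAC (-1.3, SE 0.2, adjusted p = 9.9e-05). The ETS factor *Ets2* was lower as well, at 413 and 395 CPM against 290, 275, 282 and 285 CPM (-0.51, SE 0.08, adjusted p = 0.000143), with -0.27 with EtOH. With 1 AC sample left out *Etv5* (0.0422 without duplicate 1), *Fosl1* (0.0282) and *Jun* (0.0103) no longer passed, whereas *Etv4* and *Ets2* did. The immediate-early gene *Egr1* was at 164 and 111 CPM in AC and at 102, 83, 106 and 72.6 CPM in BAC (adjusted p = 0.181), and *Myc* was at 308 and 285 CPM against 408, 340, 450 and 359 CPM (adjusted p = 0.212).

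The kinases that carry the signal differed little. None of 19 RAS, RAF, MEK and ERK pathway genes passed, and their median was 0.09, with 2 higher under the replicate block. *Map2k1*, which encodes MEK1, came closest, at 128 and 115 CPM in AC and 184, 185, 183 and 180 CPM in BAC (log2 fold change 0.59, adjusted p = 0.0106, and 0.00663 with the replicate block). Of 9 EGF receptors and ligands none passed, 1 had a positive sign, and the median was -0.41. With the replicate block the ligand gene *Egf* passed as lower (-1.83, adjusted p = 0.00754). *Areg*, a ligand of the EGF receptor, was at 214 and 231 CPM in AC and at 176, 146, 184 and 123 CPM in BAC (-0.5, adjusted p = 0.0455) with a difference of -0.58 already with EtOH, and *Egfr* was at 54.3 and 72.2 CPM against 42.6, 47, 44.2 and 52.5 CPM (-0.44, adjusted p = 0.0669).

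The largest differences upward were found in genes nearly silent in AC. *Krt13*, a keratin of squamous epithelium (ENSMUSG00000044041, chromosome 11, 100117327 to 100121566 on the minus strand), had 0 counts in both AC samples and 2.1, 0.611, 2.52 and 2.8 CPM in BAC, 285 counts in all. Against a floor of 3 counts over the AC group this is at least 40.7-fold higher (adjusted p = 0.000511, and 0.0151 without AC duplicate 1). *Alppl2*, an alkaline phosphatase, had 2 counts in AC and 115 in BAC, a ratio of 24.6 (95% interval 6.66 to 206, which covers counting error only), and its difference with EtOH was as large (4.2 against 4.45 on the log2 scale). Without AC duplicate 1 it did not pass (adjusted p = 0.0494). *Cav1*, the caveolin that shapes caveolae of the plasma membrane, was at 1.85 and 2.23 CPM in AC and at 96, 56.2, 86.6 and 38 CPM in BAC. The lowest BAC sample was far above AC, yet the spread of this gene over the series was wide (log2 fold change 5.08, SE 1.36, adjusted p = 0.00909). With EtOH the difference was already 2.96, and the call did not hold with any of the 6 samples left out (up to 0.0901 without AC duplicate 2). Its neighbour *Cav2* on chromosome 6, which encodes the partner of caveolin-1, was at 36.5 and 56.5 CPM in AC and at 137, 134, 140 and 125 CPM in BAC (1.53, SE 0.17, adjusted p = 2.8e-06), with -0.02 with EtOH. *Cavin1*, which encodes the coat protein of caveolae, was at 6.98 and 12.4 CPM in AC and 27.7, 15.7, 32.6 and 24.6 CPM in BAC (1.38, adjusted p = 0.00892), with 1.23 with EtOH, and without AC duplicate 1 it did not pass (0.147). *Cav2* and *Cavin1* were picked after their values were seen.

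The Ly6 genes encode small lipid-anchored surface proteins, of which *Ly6a* (SCA-1) marks the fetal-like state of injured gut. Of the 7 counted on chromosome 15, a set put together after values were seen, 4 were higher (against 5.38% of all genes) and none lower. *Ly6d* (1.07, adjusted p = 0.186), *Ly6e* (0.32, adjusted p = 0.497) and *Ly6h* (-0.68, adjusted p = 0.549) did not pass, and with EtOH they differed by 0.73, 0.91 and -0.99. *Ly6c2* (ENSMUSG00000022584, 75108158 to 75111970 on the minus strand) was at 0.346 and 0.144 CPM in AC and at 21.4, 16, 22.2 and 6.9 CPM in BAC (log2 fold change 6.04, SE 0.71, adjusted p = 5.89e-06). *Ly6c1* was at 36.3 and 40 CPM in AC and at 222, 195, 205 and 154 CPM in BAC (2.35, SE 0.3, adjusted p = 1.82e-05). *Ly6g* was at 371 and 402 CPM in AC and at 1150, 1230, 1140 and 1210 CPM in BAC (1.61, SE 0.25, adjusted p = 0.000117). For none of the 3 did BAC and AC overlap, and with EtOH the differences were -1.62, 0.27 and -0.17. *Ly6a* was at 805 and 980 CPM in AC and at 1450, 1480, 1520 and 1440 CPM in BAC (0.72, SE 0.15, adjusted p = 0.00161, and 0.0526 without AC duplicate 1). The 4-HT change of BAC exceeded that of AC for *Ly6c2* (7.66, adjusted p = 0.00484), *Ly6c1* (2.08, adjusted p = 0.00701) and *Ly6g* (1.79, adjusted p = 0.00647). These genes are close paralogs, and how reads shared between them were counted is not given in the sources used here, so their separate values are uncertain. *Ly6c1* and *Ly6g* were named after their values were seen.

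The others of the 15 largest differences upward have varied roles. *Ptges*, the synthase of prostaglandin E, was at 1.35 and 0.431 CPM in AC and at 15.6, 11.8, 15.7 and 6.37 CPM in BAC (3.77, SE 0.82, adjusted p = 0.00215). *Lgals1*, which encodes galectin-1, was at 1.85 and 1.26 CPM in AC and at 20, 14.1, 17.3 and 11 CPM in BAC (3.32, SE 0.45, adjusted p = 3.13e-05) and held with every sample left out. *Ehd3*, an endosome trafficking gene, was at 0.283 and 0.036 CPM against 3.19, 2.61, 2.7 and 2.07 CPM (3.97, SE 0.83, adjusted p = 0.00159). All of these lay higher in every BAC sample. *Crip1*, a LIM domain gene, was at 37.1 and 19.7 CPM in AC and 197, 132, 168 and 109 CPM in BAC (2.42, SE 0.56, adjusted p = 0.00355), but 1.98 of that difference was there with EtOH. *Angptl4*, a secreted inhibitor of lipoprotein lipase, was at 0.22 and 0.863 CPM against 2.01, 1.6, 4.01 and 4.66 CPM (2.52, SE 0.63, adjusted p = 0.00609), with 1.76 for Col286 and 3.02 for Col291, and 1.36 between BAC and AC with EtOH. *Padi4*, which converts arginine to citrulline in proteins, was at 1.01 and 0.647 CPM against 5.83, 4.68, 4.91 and 5.01 CPM (2.62, SE 0.68, adjusted p = 0.00756). The remaining 5 genes (*Pcolce2*, *Arhgap9*, *Adm2*, *Reep1* and *E330020D12Rik*) had log2 fold changes from 2.57 to 2.79 and lost the call with a sample left out (0.0461 to 0.111). Of the genes in this paragraph, *Lgals1* alone passed with each AC sample left out, and the others reached adjusted p-values of 0.0458 (*Ehd3*), 0.0565 (*Ptges*) 0.0823 (*Crip1*) and 0.105 (*Padi4*) without AC duplicate 2 and of 0.115 (*Angptl4*) without duplicate 1.

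**Figure D3:**
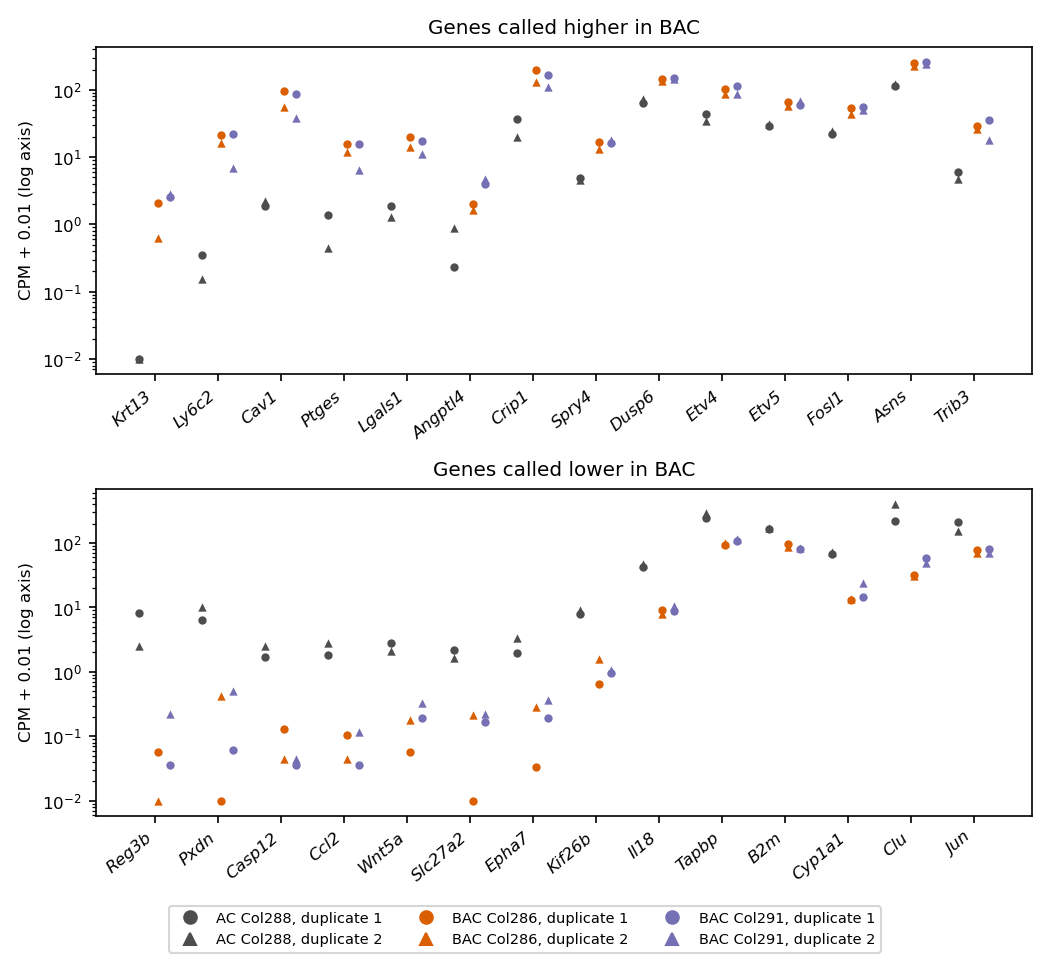
Level in each 4-HT sample (CPM plus 0.01, log axis) of genes higher in BAC (top) and lower in BAC (bottom), with AC and the BAC lines in separate colours. The 2 AC and the 4 BAC samples stand apart for each gene drawn, among them *Clu* at 222 and 411 CPM in AC against 31.1 to 58.1 CPM in BAC and *Krt13* at 0 in both AC samples.

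Short stretches of promoters are printed for genes above and below because ETS and AP-1 factors were among the genes that differed, for genes higher in BAC first and then for *Dll1* and *Guca2a*, which were lower. The 250 bases before each RefSeq transcript start (GRCm38.p6) were searched on both strands for TGANTCA (AP-1), CCGGAAGT (ETS) and CTTTGAA or CTTTGAT (TCF/LEF). The ETS letters were in 8.27% of 701 promoters of genes higher in BAC, 1.44% of 696 promoters of genes lower in BAC, 5.72% of 12920 promoters of genes tested and 2.88% of all 32851 promoters. The AP-1 letters were in 4.14%, 5.89%, 4.89% and 6.75%, and the TCF/LEF letters in 5.14%, 7.47%, 5.4% and 7.48% of the same sets. Of the 204 genes named, 151 had a promoter in the table. The genes higher and lower in BAC also differed in level, with medians of 70.8 and 7.69 CPM. Of them 98.5% and 83.5% were protein-coding, and the part of these differences in the ETS shares was not tested. A match of letters is a description and not a binding site. The windows below are a selection. Matches in other named genes are not printed, among them AP-1 in *Cav2* and *Aldh1a1* and TCF/LEF in *Reep1* and *E330020D12Rik*. Each window holds the match in capitals with 25 bases on each side, 5′ to 3′ on the strand of the gene. *Krt13* has 3 AP-1 matches before 2 RefSeq starts, and its last 2 windows lie within the annotated span of the gene.
Krt13, chr11:100121731-100121787, minus strand, AP-1: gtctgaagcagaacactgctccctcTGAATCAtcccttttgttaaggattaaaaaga
Krt13, chr11:100120729-100120785, minus strand, AP-1: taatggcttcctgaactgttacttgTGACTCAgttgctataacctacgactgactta
Krt13, chr11:100120580-100120636, minus strand, AP-1: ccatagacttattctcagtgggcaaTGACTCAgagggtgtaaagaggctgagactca
Padi4, chr4:140774226-140774282, minus strand, AP-1: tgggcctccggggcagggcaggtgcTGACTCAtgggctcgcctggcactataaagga
Hspa5, chr2:34771883-34771939, plus strand, AP-1: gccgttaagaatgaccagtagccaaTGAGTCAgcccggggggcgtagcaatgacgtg
Aurka, chr2:172370670-172370727, minus strand, ETS on the other strand: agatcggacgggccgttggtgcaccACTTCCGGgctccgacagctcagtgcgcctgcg
Dll1, chr17:15377010-15377066, minus strand, AP-1: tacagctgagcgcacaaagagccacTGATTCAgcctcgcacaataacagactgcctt
Guca2a, chr4:119637507-119637563, plus strand, AP-1: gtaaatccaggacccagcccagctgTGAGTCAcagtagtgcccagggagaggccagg

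Most mitosis genes were higher in BAC, and fewer genes of other cell cycle lists were. Of 22 mitosis genes, 14 (63.6%) were higher and none lower, against 5.38% higher among all genes, with a median log2 fold change of 0.55 (0.22 with EtOH), and with library size alone 11 were higher. *Ccna2*, which encodes cyclin A2, was at 149 and 153 CPM in AC and at 272, 266, 265 and 270 CPM in BAC (0.83, SE 0.09, adjusted p = 1.36e-06). Both groups were tight and far apart, with a difference of 0.43 with EtOH. *Ccnb1*, cyclin B1, was at 107 and 112 CPM against 205, 190, 209 and 189 CPM (0.86, SE 0.12, adjusted p = 5.49e-05), and the kinase gene *Aurka*, whose promoter window is printed above, was at 78 and 68.2 CPM against 136, 125, 138 and 130 CPM (0.86, SE 0.13, adjusted p = 0.000118). These 3 passed with each sample left out, and *Plk1*, a kinase of mitotic entry at 126 and 120 CPM against 229, 205, 240 and 215 CPM (0.85, adjusted p = 0.000592), did not without AC duplicate 2 (0.0177). Of 28 genes of S phase and DNA replication, 4 (14.3%) were higher and none lower, 26 had a positive sign, the median was 0.42 and 12 passed with the replicate block. *Rrm2*, a subunit of ribonucleotide reductase, was at 119 and 131 CPM in AC and at 240, 219, 237 and 243 CPM in BAC (0.91, SE 0.12, adjusted p = 2.55e-05), and *Rrm1*, the other subunit, was at 178 and 198 CPM against 286, 271, 289 and 288 CPM (0.59, adjusted p = 0.000949, and 0.0325 without AC duplicate 1). Among 12 D cyclins and CDK inhibitors only *Ccnd3*, cyclin D3, passed, at 75.3 and 82.1 CPM against 105, 104, 108 and 104 CPM (0.41, adjusted p = 0.00694), and it did not pass with any sample left out (up to 0.0961 without AC duplicate 1) or with library size alone. With the replicate block 1 of these 12 was higher and 1 lower. *Cdkn1a*, the CDK inhibitor p21, was at 258 and 246 CPM in AC and 377, 351, 370 and 334 CPM in BAC and did not pass (0.51, adjusted p = 0.164, and 0.47 with EtOH).

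The unfolded protein response raises the folding capacity of the endoplasmic reticulum and works in part through the factor ATF4. Of its 20 genes counted, 9 (45%) were higher and none lower, against 5.38% higher among all genes, with a median of 0.36 (0.1 with EtOH), and 6 were higher with library size alone. *Asns*, asparagine synthetase, was at 113 and 123 CPM in AC and at 252, 229, 260 and 243 CPM in BAC (1.06, SE 0.11, adjusted p = 1.36e-06). *Psat1*, an enzyme of serine synthesis named after its values were seen, was at 103 and 106 CPM against 227, 235, 239 and 238 CPM (1.17, SE 0.13, adjusted p = 3.69e-06). Both are known targets of the stress factor ATF4, and neither differed much with EtOH (0.1 and 0.12). Their 4-HT change in BAC exceeded that in AC, by 0.97 for *Asns* (adjusted p = 0.00247) and by 1.05 for *Psat1* (adjusted p = 0.0037). *Atf4* itself was at 115 and 84 CPM in AC and at 163, 157, 157 and 146 CPM in BAC (0.65, adjusted p = 0.00181, and 0.0951 without AC duplicate 2). *Trib3*, a pseudokinase induced by ATF4, was at 6 and 4.67 CPM against 29.3, 26.1, 35.8 and 18.1 CPM (2.35, SE 0.38, adjusted p = 0.00019, and 0.0104 without AC duplicate 2). *Creld2*, a chaperone of the endoplasmic reticulum, was at 55.7 and 52.6 CPM against 92.2, 82.7, 92.6 and 82.4 CPM (0.69, SE 0.1, adjusted p = 9.44e-05), and *Hspa5*, the chaperone BiP, was at 688 and 746 CPM against 1020, 946, 1050 and 974 CPM (0.48, SE 0.1, adjusted p = 0.00144, and 0.0394 without AC duplicate 1).

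In metabolism, 3 of 18 glycolysis genes (16.7%) were higher and none lower, against 5.38% higher among all genes, and 2 were higher with library size alone. All 18 had a positive sign, the median was 0.93, and it was 0.62 with EtOH. *Eno1*, enolase, was at 1920 and 1590 CPM in AC and at 4280, 3440, 4290 and 2990 CPM in BAC (1.1, SE 0.27, adjusted p = 0.00515, and 0.0888 without AC duplicate 2), with 0.54 with EtOH. *Slc2a1*, the glucose transporter GLUT1, was at 169 and 151 CPM against 305, 279, 312 and 284 CPM (0.88, SE 0.2, adjusted p = 0.00322, and 0.06 without AC duplicate 2). *Ldha*, lactate dehydrogenase, differed by 1.25 between 2550 and 1460 CPM in AC and 5460, 4440, 5410 and 3800 CPM in BAC. Its duplicates were far apart, it did not pass (adjusted p = 0.0211), and with the replicate block it passed, as did 8 of the 18 genes. With EtOH it differed by 0.8. Of 20 genes of cholesterol synthesis, 5 (25%) were higher, none lower and 19 positive in sign, with a median of 0.35 (0.21 with EtOH). With library size alone 3 were higher, and with the replicate block 9. *Idi1*, an isomerase of the pathway, was at 54.7 and 57.7 CPM in AC and at 95.4, 92.2, 92.1 and 104 CPM in BAC (0.77, SE 0.13, adjusted p = 0.000321, and 0.013 without AC duplicate 1), with 0.49 with EtOH.

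**Figure D4:**
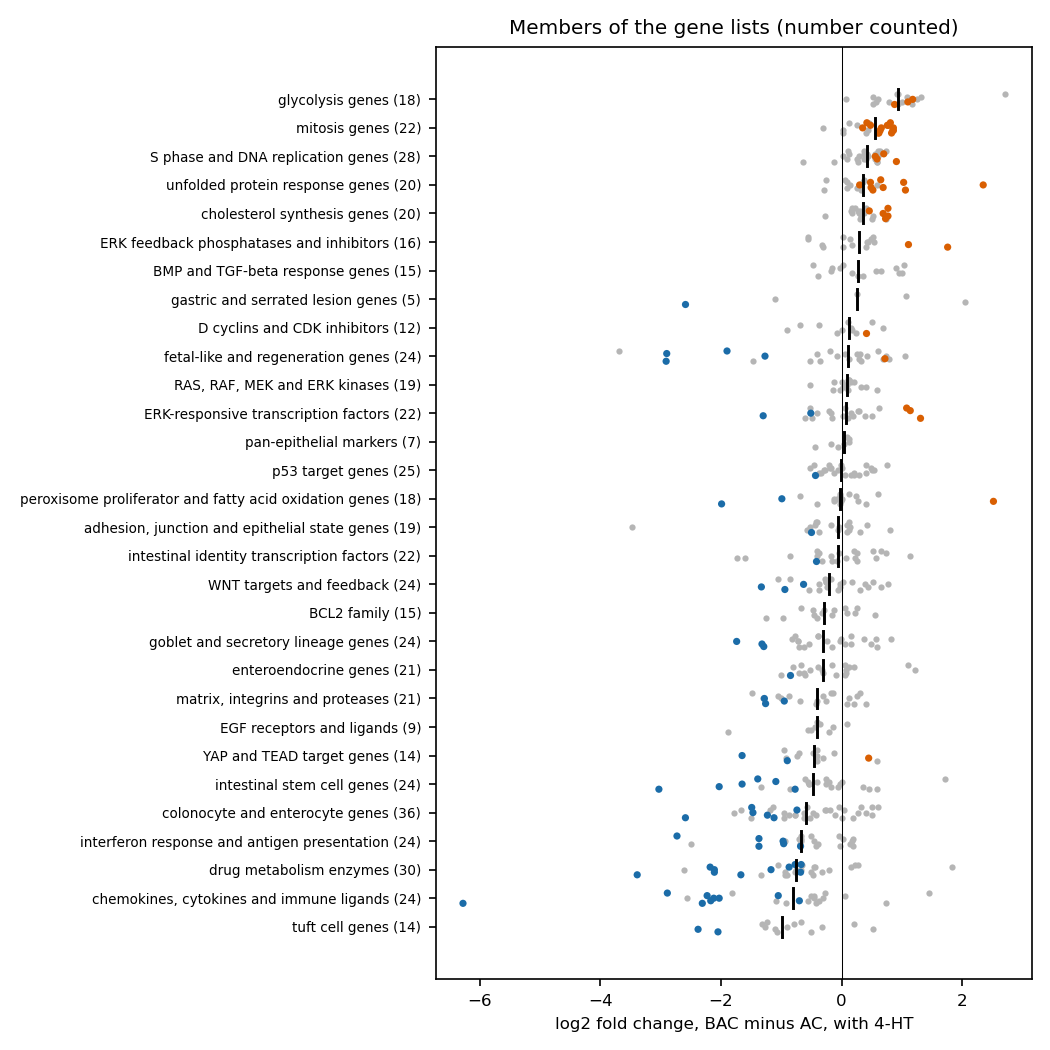
Log2 fold change of BAC against AC with 4-HT for each counted member of the gene lists, 1 row per list, with members past an adjusted p of 0.01 in colour and the list's median as a bar. Mitosis, glycolysis and unfolded protein response lists lie to the right of 0, with medians of 0.55, 0.93 and 0.36, and chemokines and drug metabolism enzymes to the left, with -0.81 and -0.76.

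Genes of immune signaling were lower in part. Of 24 chemokines, cytokines and immune ligands, 9 (37.5%) were lower and none higher, against 5.75% lower among all genes, with a median of -0.81 (-0.17 with EtOH). *Il18*, the cytokine interleukin-18 that epithelium releases in defence (ENSMUSG00000039217, chromosome 9, 50554827 to 50581840 on the plus strand), was at 42.7 and 47 CPM in AC and at 9.09, 8.04, 8.74 and 10.4 CPM in BAC (-2.31, SE 0.21, adjusted p = 4.67e-07), and at most 1.65e-05 with any sample left out. All 4 BAC samples lay far below AC, whereas with EtOH the difference was 0.25, and the 4-HT change of BAC was below that of AC by 2.56 on the log2 scale (adjusted p = 0.000134). *Bco2* overlaps *Il18* on the opposite strand and was lower as well (-1.62, adjusted p = 5.76e-05), and the 2 genes cannot be told apart by their reads unless strand was used. *Ccl6*, a chemokine named after its values were seen, was at 35.9 and 21.9 CPM in AC and at 2.88, 3.77, 2.47 and 4.59 CPM in BAC (-3.08, SE 0.32, adjusted p = 1.36e-06). *Tnfsf10*, the death ligand TRAIL, was at 2.01 and 1.94 CPM against 0.732, 0.238, 0.565 and 0.21 CPM (-2.12, SE 0.35, adjusted p = 0.000188). For both of these the difference with EtOH was small or of the other sign (-0.1 and 0.83), and the test of the difference passed (-2.98, adjusted p = 0.00247, and -2.95, adjusted p = 0.00425). *Ccl2*, the monocyte chemokine, was at 1.85 and 2.77 CPM in AC and at or below 0.105 CPM in BAC (-5.07, SE 0.74, adjusted p = 7.75e-05), but -3.81 of this was present with EtOH. *Nos2*, inducible nitric oxide synthase, was at 5.75 and 3.34 CPM against 0.968, 1.36, 1.05 and 0.665 CPM (-2.17, SE 0.33, adjusted p = 0.000117, and 0.0113 without AC duplicate 1), and the chemokine *Ccl20*, named after its values were seen, was at 2.26 and 4.17 CPM against 0.236, 0.509, 0.257 and 0.77 CPM (-2.89, adjusted p = 0.000826, and 0.0281 without AC duplicate 2). Among immune receptors, *Pigr*, which carries IgA through the epithelium, was at 1330 and 1140 CPM in AC and at 599, 662, 486 and 530 CPM in BAC (-1.12, SE 0.11, adjusted p = 1.12e-06), and *Tlr2*, a receptor for bacterial lipoproteins, was at 16.3 and 14.2 CPM against 7.15, 7.7, 6.43 and 7.42 CPM (-1.09, adjusted p = 0.000312, and 0.0124 without AC duplicate 1). Both were named after their values were seen.

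Of 24 genes of the interferon response and antigen presentation, 6 (25%) were lower and none higher, against 5.75% lower among all genes, with a median of -0.67 (0.02 with EtOH). *Tapbp*, or tapasin, which loads peptides onto MHC class I, was at 247 and 289 CPM in AC and at 93.1, 101, 106 and 114 CPM in BAC (-1.37, SE 0.14, adjusted p = 1.12e-06). *B2m*, the light chain of MHC class I, had a mean of 168 CPM in AC (SD 5.5) and lay at 96.2, 87.2, 80.2 and 82.6 CPM in BAC (-0.96, SE 0.16, adjusted p = 0.000186). Both passed with each sample left out, and with EtOH the differences were -0.34 for *Tapbp* and 0 for *B2m* on the log2 scale. *Irf1*, an interferon-induced transcription factor, was at 38.6 and 39.6 CPM against 18.8, 18.5, 21.1 and 21.3 CPM (-0.97, SE 0.18, adjusted p = 0.000589, and 0.0116 without AC duplicate 2), with -0.49 with EtOH. *Psmb9*, a subunit of the immunoproteasome, was at 2.64 and 2.37 CPM against 1.02, 0.984, 1.11 and 0.735 CPM (-1.37, adjusted p = 0.00183, and 0.0287 without AC duplicate 1). *Cd74*, the invariant chain of MHC class II, was at 1.29 and 1.22 CPM against 0.236, 0.17, 0.154 and 0.175 CPM (-2.73, adjusted p = 0.00569), but lost the call with any sample left out (up to 0.0391 without AC duplicate 1). In bulk RNA, fewer cells of a type and less RNA per cell cannot be told apart, here and for the lineage genes that follow.

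The 15 largest differences downward included several genes that already differed between the lines with EtOH. *Reg3b*, an antimicrobial lectin, was at 8.33 and 2.52 CPM in AC and at 0.0472, 0, 0.0257 and 0.21 CPM in BAC (-6.28, SE 1.32, adjusted p = 0.00174, and 0.0336 without AC duplicate 1), with -4.51 with EtOH. *Pxdn*, peroxidasin of the basement membrane, was at 6.29 and 10.3 CPM against 0, 0.407, 0.0514 and 0.49 CPM (-5.22, SE 0.89, adjusted p = 0.000298), with -4.46 with EtOH. *Wnt5a*, a WNT ligand, was at 2.83 and 2.09 CPM against 0.0472, 0.17, 0.18 and 0.315 CPM (-3.82, SE 0.82, adjusted p = 0.00202, and 0.0232 without AC duplicate 1), with -3.39 with EtOH. For these 3, the EtOH difference was most of the 4-HT difference, although none passed with EtOH. Others differed less with EtOH. *Casp12*, an inflammatory caspase, was at 1.7 and 2.48 CPM in AC and at 0.118, 0.0339, 0.0257 and 0.035 CPM in BAC (-5.1, SE 0.75, adjusted p = 8.03e-05), with -0.6 with EtOH. *Slc27a2*, a fatty acid transporter, was at 2.2 and 1.65 CPM against 0, 0.204, 0.154 and 0.21 CPM (-3.81, SE 0.58, adjusted p = 0.000111), with 0 with EtOH. *Fut9*, a fucosyltransferase, was at 4.34 and 5.43 CPM against 0.307, 0.305, 0.257 and 0.49 CPM (-3.85, SE 0.71, adjusted p = 0.000585), with 0.49 with EtOH, and *Epha7*, an ephrin receptor, was at 1.95 and 3.31 CPM against 0.0236, 0.272, 0.18 and 0.35 CPM (-3.72, SE 0.55, adjusted p = 8.94e-05), with -0.78 with EtOH. *Pxdn*, *Casp12*, *Slc27a2*, *Fut9* and *Epha7* passed with each sample left out. *Flrt2*, which encodes an adhesion protein, had 73 counts in AC and 3 in BAC, a ratio of 0.0176 (95% interval 0.00355 to 0.0535, counting error only), and did not pass without AC duplicate 2 (0.0455). The remaining 6 genes (*Gm19938*, *Gm830*, *Cfap299*, *Cbln2*, *Gbp8* and *H2-M2*) had log2 fold changes from -4.14 to -3.6, and of these *Gm830* and *H2-M2* passed with each sample left out. *Gm19938* lies within *Xkr4* on the same strand, which was lower as well (-1.71, adjusted p = 0.00184), with -1.18 with EtOH.

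Some stem cell genes were lower in BAC, and few WNT genes passed. Of 24 intestinal stem cell genes, 6 (25%) were lower and none higher, against 5.75% lower among all genes, with a median of -0.47, but also -0.33 with EtOH, and 10 were lower with the replicate block. *Kif26b* was at 7.92 and 9.1 CPM in AC and at 0.637, 1.56, 0.951 and 1.05 CPM in BAC (-3.03, SE 0.36, adjusted p = 5.89e-06), with -1.26 with EtOH. *Smoc2*, a secreted matrix protein of crypt base cells, was at 249 and 205 CPM against 89.3, 77.1, 73.4 and 108 CPM (-1.39, SE 0.31, adjusted p = 0.00284, and 0.0427 without AC duplicate 1). *Lgr5*, the receptor that defines these stem cells, overlapped between the groups, at 91.6 and 95.2 CPM in AC and at 106, 90.7, 91.7 and 78.5 CPM in BAC (-0.02, adjusted p = 0.968, and -0.45 with EtOH), and its sign turned under 4 alternatives, to between 0.03 and 0.13. Of 24 WNT targets and feedback genes, 3 (12.5%) were lower and none higher, a share near the 11.1% of all genes that passed (5.75% as lower), and the median was -0.21 against -0.45 with EtOH. *Sox4*, a transcription factor, was at 527 and 459 CPM in AC and at 290, 232, 307 and 199 CPM in BAC (-0.94, SE 0.22, adjusted p = 0.00329, and 0.0499 without AC duplicate 1), with -0.55 with EtOH. *Rnf43*, the ligase that removes WNT receptors, was at 135 and 153 CPM against 84.4, 90.9, 94.2 and 101 CPM (-0.63, adjusted p = 0.00614, and 0.0974 without AC duplicate 2), with -0.46 with EtOH. *Axin2*, a feedback inhibitor of WNT, was at 77 and 79.7 CPM in AC and at 63.6, 72, 66.4 and 62.2 CPM in BAC and did not pass (adjusted p = 0.457), with -0.8 with EtOH. *Fzd1*, a WNT receptor, was higher, at 32.9 and 42.8 CPM against 60.4, 60, 67.8 and 69.3 CPM (0.77, SE 0.13, adjusted p = 0.000207, and 0.0186 without AC duplicate 1), and its 4-HT change in BAC exceeded that in AC by 0.94 (adjusted p = 0.00647). *Lgr5*, *Axin2*, *Smoc2* and *Fzd1* were named after their values were seen, as were *Etv5*, *Spry2*, *Egr1*, *Myc*, *Plk1*, *Cdkn1a*, *Atf4*, *Ldha*, *Malat1* and *Cd74* above.

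Among genes of differentiated colon cells, most did not pass. Of 36 colonocyte and enterocyte genes, 6 (16.7%) were lower and none higher, against 5.75% lower among all genes, with a median of -0.59 (0.08 with EtOH). *Guca2a*, guanylin, a peptide that controls fluid secretion, was at 783 and 558 CPM in AC and at 263, 350, 277 and 257 CPM in BAC (-1.23, SE 0.22, adjusted p = 0.000459, and 0.0258 without AC duplicate 1). Its relative *Guca2b*, uroguanylin, was at 55 and 32.4 CPM against 18.4, 15.5, 15 and 13.1 CPM (-1.49, adjusted p = 0.000695, and 0.0464 without AC duplicate 1). *Cdhr5*, a cadherin that links microvilli, was at 862 and 760 CPM against 418, 501, 468 and 560 CPM (-0.74, SE 0.14, adjusted p = 0.000664, and 0.0234 without AC duplicate 1). *Ces1g*, a carboxylesterase of a family with close paralogs, was at 25.1 and 26.4 CPM against 2.86, 6.55, 2.26 and 5.67 CPM (-2.59, SE 0.46, adjusted p = 0.00042). *Slc5a1*, the sodium-glucose transporter, was at 178 and 156 CPM against 85.4, 90.9, 86.8 and 97.2 CPM (-0.89, adjusted p = 0.000693, and 0.0215 without AC duplicate 1), and *Hsd11b2*, which inactivates glucocorticoids, at 51.5 and 52.3 CPM against 14.8, 19.8, 16 and 20.6 CPM (-1.54, SE 0.21, adjusted p = 4.22e-05). With EtOH the differences were 0.45 and 0.46, neither of which passed, and the 4-HT change of BAC was below that of AC by 1.34 for *Slc5a1* (adjusted p = 0.00647) and by 2.01 for *Hsd11b2* (adjusted p = 0.00247). *Dhrs3*, a retinal reductase and the gene with the smallest p of all, was at 37.3 and 40.1 CPM against 14.3, 16.5, 14.8 and 14.7 CPM (-1.36, SE 0.12, adjusted p = 4.18e-07). *Guca2b*, *Slc5a1*, *Hsd11b2* and *Dhrs3* were named after their values were seen.

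Enzymes of drug metabolism were lower in part. Of 30 counted, 10 (33.3%) were lower and none higher, against 5.75% lower among all genes, with a median of -0.76 (-0.02 with EtOH). *Cyp1a1*, a cytochrome P450 controlled by the aryl hydrocarbon receptor, was at 68.4 and 72.7 CPM in AC and at 13.2, 13.7, 14.6 and 24 CPM in BAC (-2.11, SE 0.42, adjusted p = 0.00113, and 0.0145 without AC duplicate 2). *Cyp2c55*, which oxidises arachidonic acid, was at 2220 and 2050 CPM against 728, 900, 672 and 1500 CPM (-1.17, SE 0.3, adjusted p = 0.00731, and 0.0588 without AC duplicate 1), and *Cyp2c68* of the same family at 23.8 and 11.5 CPM against 2.12, 3.46, 1.29 and 4.48 CPM (-2.66, adjusted p = 0.000182, and 0.0156 without AC duplicate 1). *Gstm1*, a glutathione transferase, was at 432 and 415 CPM against 250, 280, 232 and 295 CPM (-0.68, SE 0.13, adjusted p = 0.000887, and 0.0186 without AC duplicate 1). These families hold near-identical copies, so values of single members are uncertain, and *Cyp2c55* and *Cyp2c68* were named after their values were seen. Of 18 genes of fatty acid oxidation and its regulators, 1 was higher and 2 were lower, with a median of -0.03, and with the replicate block 2 were higher and 3 lower. The higher gene was *Angptl4*, given above.

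Some genes of secretory lineages were lower. Of 24 goblet and secretory genes, 3 (12.5%) were lower and none higher, against 5.75% lower among all genes, 8 had a positive sign, and the median was -0.31, with 5 lower and 1 higher under the replicate block. *Kit* was at 39.5 and 43.4 CPM in AC and at 13.4, 19.6, 14.1 and 20.7 CPM in BAC (-1.29, SE 0.26, adjusted p = 0.0014), and *Dll1*, the Notch ligand of secretory precursors, was at 8.61 and 6.36 CPM against 2.76, 3.67, 2.62 and 3.01 CPM (-1.32, adjusted p = 0.00333). *Retnlb*, a goblet cell peptide against bacteria, was at 20.2 and 19.1 CPM against 3.78, 8.59, 3.96 and 7.42 CPM (-1.74, adjusted p = 0.00633). The mucin gene *Muc2* overlapped between the groups, at 745 and 779 CPM against 488, 762, 420 and 658 CPM (-0.39, adjusted p = 0.378, and -0.24 with EtOH). *Agr2*, a protein disulfide isomerase of goblet cells, had the opposite sign, at 627 and 509 CPM in AC and 1020, 1080, 880 and 1030 CPM in BAC. It did not pass (0.82, adjusted p = 0.0101) but did with the replicate block (0.00579), and with EtOH its difference was 0. *Muc2* and *Agr2* were named after their values were seen. Without AC duplicate 1, *Dll1* (0.0675) and *Retnlb* (0.0456) did not pass, and without AC duplicate 2 *Kit* did not (0.0238). Of 14 tuft cell genes 2 (14.3%) were lower and none higher, with a median of -0.99, and -0.63 with EtOH, and 4 were lower with the replicate block. *Hpgds*, a prostaglandin D synthase, was at 17 and 13.5 CPM in AC and at 4.27, 2.85, 3.88 and 3.71 CPM in BAC (-2.05, SE 0.23, adjusted p = 4.8e-06), and *Ptgs1*, cyclooxygenase-1, was at 2.14 and 3.67 CPM against 0.779, 0.441, 0.386 and 0.595 CPM (-2.38, SE 0.37, adjusted p = 0.000141). Of 21 enteroendocrine genes, *Cpe*, a protease that matures hormones, passed, at 67.8 and 76.9 CPM against 33, 36.7, 44.7 and 45.9 CPM (-0.85, adjusted p = 0.00103, and 0.0289 without AC duplicate 2), with -0.56 with EtOH, and the list's median was -0.31 against 0.48 with EtOH.

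The fetal-like and regeneration list of 24 genes went both ways, with 1 gene higher (*Ly6a*, above), 4 lower (20.8% in all, against 11.1% of all genes) and a median of 0.1, and with the replicate block 3 were higher and 5 lower. *Clu*, clusterin, a marker of revival stem cells, was at 222 and 411 CPM in AC and at 31.8, 31.1, 58.1 and 48.2 CPM in BAC (-2.9, SE 0.65, adjusted p = 0.00284, and 0.0517 without AC duplicate 2), with -1.61 with EtOH. *Basp1* was at 7.64 and 10.8 CPM against 1.61, 0.679, 1.59 and 0.945 CPM (-2.91, SE 0.55, adjusted p = 0.000747, and 0.0151 without AC duplicate 2). Members of this list thus stood on both sides of 0. Of 14 YAP and TEAD target genes 1 was higher and 2 lower, with a median of -0.45 with 4-HT and with EtOH alike, and 4 were lower with the replicate block. *Amotl2*, an inhibitor of YAP, was at 25.8 and 26.2 CPM against 12, 14.8, 15.4 and 13.5 CPM (-0.9, SE 0.14, adjusted p = 0.000117), while *Yap1* itself was at 39 and 42.1 CPM against 55.5, 54.1, 56.4 and 56.3 CPM (0.45, SE 0.11, adjusted p = 0.00579) and did not pass without AC duplicate 1 (0.0806) or with library size alone. Of 5 gastric and serrated lesion genes, *Onecut2* passed as lower although its samples overlapped, at 0.534 and 3.74 CPM against 0.354, 0.136, 0.591 and 0.28 CPM (-2.6, adjusted p = 0.00883, and 0.717 without AC duplicate 2), with -1.54 with EtOH. Of 3 gasdermin C genes, which are close paralogs, 1 was lower, with a median of -2.5 (-0.25 with EtOH), and *Gsdmc2* was at 1.48 and 2.01 CPM against 0.212, 0.272, 0.154 and 0.63 CPM (adjusted p = 0.00174, and 0.0309 without AC duplicate 2).

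The other lists are given by their counts, to be read against the 5.38% of all genes that were higher and the 5.75% that were lower. Of 22 intestinal identity transcription factors, *Isx*, which controls vitamin A uptake, was lower, at 252 and 273 CPM in AC and 180, 206, 194 and 201 CPM in BAC (-0.43, adjusted p = 0.00255, and 0.0581 without AC duplicate 2), and the median was -0.06, with 4 lower under the replicate block. Of 21 genes of matrix, integrins and proteases 3 (14.3%) were lower, with a median of -0.4. *Mmp15*, a membrane-bound metalloproteinase, was at 229 and 262 CPM against 99.7, 89.6, 114 and 107 CPM (-1.26, SE 0.15, adjusted p = 7.66e-06), and *Itgb6*, an integrin of epithelium that activates TGF-beta, was at 52.4 and 63.2 CPM against 28.6, 29.9, 28.2 and 33.1 CPM (-0.95, SE 0.14, adjusted p = 0.000112). Both passed with each sample left out. Of 19 adhesion and junction genes, *Ocln*, occludin, was lower, at 218 and 254 CPM against 166, 152, 174 and 170 CPM (-0.51, adjusted p = 0.00526, and 0.12 without AC duplicate 2), with -0.32 with EtOH, and 5 of the list were lower with the replicate block. Of 25 p53 target genes, *Dcxr* was lower (-0.44, adjusted p = 0.00758, and 0.128 without AC duplicate 2), with a list median of -0.01, and with the replicate block 1 was higher and 1 lower. In the BCL2 family of 15 genes and among 15 BMP and TGF-beta response genes none passed by edgeR, with medians of -0.29 and 0.27. With the replicate block 4 of the BCL2 family were lower and 1 higher, and 1 of the BMP and TGF-beta genes was lower, and with library size alone 1 of each list was lower. The proapoptotic gene *Bik*, at 5.88 and 3.78 CPM against 2.36, 1.87, 2.44 and 1.37 CPM (adjusted p = 0.0102), and *Bid*, at 26.1 and 26.9 CPM against 40.7, 38.1, 38.3 and 38.2 CPM (adjusted p = 0.0206), differed in opposite directions without passing, and both passed with the replicate block (0.000959 and 0.000771). With that block 24 named genes passed in addition and none was lost.

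The 29 genes whose 4-HT change differed between BAC and AC all had passed in the level comparison, with which they share samples. The 9 with a higher change were *Ly6c2*, *Ly6c1*, *Ly6g*, *Cav2*, *Psat1*, *Asns*, *Fzd1*, *Smim3* and *Tmem65*. The 20 with a lower change included *Il18*, *Ccl6*, *Tnfsf10*, *Tlr2*, *Pigr*, *Slc5a1*, *Hsd11b2*, *Dhrs3* and *Cyp2c68*. Of these genes all but *Il18* and *Tnfsf10* were named after their values were seen. *Pigr* had the smallest adjusted p of the 29 (-1.4 on the log2 scale, adjusted p = 9.6e-05), with 0.28 with EtOH. By list, the contrast passed for 2 of 24 chemokines, cytokines and immune ligands, against 0.215% of all genes. It passed for 0 of 24 interferon and antigen presentation genes, 0 of 36 colonocyte and enterocyte genes and 0 of 30 drug metabolism enzymes.

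**Figure D5:**
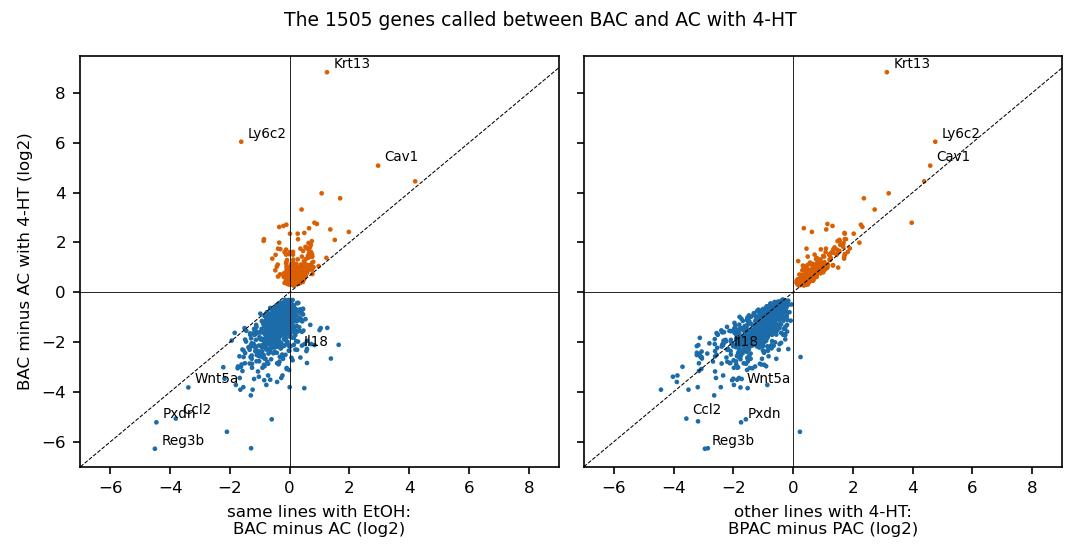
For the 1505 genes that differed between BAC and AC with 4-HT, the difference with 4-HT (log2 fold change, vertical axis) against the difference of the same lines with EtOH (left) and against BPAC minus PAC with 4-HT (right). With EtOH the median in the 4-HT direction is 0.23 against 0.79 with 4-HT, for which the genes were selected, and in BPAC minus PAC 1503 of the 1505 genes have the same sign.

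Whether the same genes differed with mutant *Trp53* was read from BPAC and PAC organoids with 4-HT, 8 samples of 4 other donors that carry *Trp53* LSL-R172H in addition and share no sample with the comparison above. There 2187 genes (16.2%) passed, 1170 (8.65%) higher and 1017 (7.52%) lower with the *Braf* allele, and 3461 with the replicate block. Of the 1505 genes, 1503 had the same sign there, against 82.4% of all genes, and 1109 passed in both, all in the same direction. These 1109 were 73.7% of the genes that passed in BAC against AC and 50.7% of those that passed in BPAC against PAC. Without the 2 PAC libraries that held both *Xist* and Y-linked RNA, 1628 genes passed in BPAC against PAC and 1395 in BAC against AC. Of these 1395, 1392 had the same sign in both, against 83.7% of all genes, and 927 passed in both, all in the same direction (66.5% and 56.9% of the calls). The measures of RNA that moved in BAC against AC moved the same way in this comparison. The mitochondrial share was 0.562% to 0.957% in BPAC and 1.08% to 2.47% in PAC, with a median log2 fold change of -1.17 over the mitochondrial genes, and *Malat1* was at 73.4 to 111 CPM against 161 to 285 CPM, with no overlap. Their part in the shared calls was not tested. The difference between both effects was tested directly and passed for 0 genes by edgeR and by limma-voom and for 1 by DESeq2, with 342 at an unadjusted p under 0.05 (0 and 285 by edgeR without the 2 libraries). Genes with unlike values did not pass either, such as *Krt13* (8.83 in BAC and 3.14 in BPAC) and *E330020D12Rik* (2.57 and 0.36). The count of 0 thus does not measure how alike both effects were. Side by side, *Spry4* differed by 1.76 in BAC and 1.9 in BPAC, *Dusp6* by 1.11 and 1.09, *Etv4* by 1.31 and 1.22, and *Ccna2* by 0.83 and 0.75. *Ly6c2* differed by 6.04 and 4.76, *Cav2* by 1.53 and 1.73, *Il18* by -2.31 and -2.2, and *Tapbp* by -1.37 and -1.29. These 8 genes passed in both, and without the 2 PAC libraries their BPAC differences were 2.15 (*Spry4*), 1.04 (*Dusp6*), 1.49 (*Etv4*), 0.84 (*Ccna2*), 4.15 (*Ly6c2*), 1.58 (*Cav2*), -2.23 (*Il18*) and -1.49 (*Tapbp*), all of which passed. *Crip1* (2.42 and 0.63, adjusted p = 0.254 in BPAC), *Pxdn* (-5.22 and -1.74, adjusted p = 0.0849), *Clu* (-2.9 and -1.06, adjusted p = 0.159) and *Flrt2* (0.23 in BPAC, adjusted p = 0.882) did not pass in BPAC against PAC, nor without the 2 libraries, where the values were 1.39 for *Crip1*, -2.11 for *Pxdn*, -1.11 for *Clu* and -0.52 for *Flrt2*, whose sign turned. Of 36 colonocyte genes 16 were lower there, of 30 drug metabolism enzymes 17, of 24 interferon and antigen presentation genes 11, of 24 chemokines and cytokines 9, and of 22 mitosis genes 15 were higher. Without the 2 libraries these counts were 17, 15, 12, 9 and 14. Among 25 p53 targets 7 were higher and 2 lower in BPAC, with a median of 0.33, and without the 2 libraries 3 were higher and 1 lower, with a median of 0.18.

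The BAC donors were also set against each other, with 2 samples each. Between Col291 and Col286 with 4-HT, 2 genes passed, *Slfn9* (lower by 2.1 in Col291 on the log2 scale) and *Gm21887* (higher by 2.7), and 107 had an unadjusted p under 0.05. Genes that differed plainly did not pass in this contrast. *Ddx3y*, at 24.1 and 27.1 CPM against 0 and 0, had an adjusted p of 0.0946, and *Xist* one of 0.0932, so the count of 2 does not measure how alike the donors were. Set against AC one line at a time, Col286 differed for 476 genes, 210 higher and 266 lower, and Col291 for 666, 307 higher and 359 lower. All 1505 genes had the same sign in both lines, which follows in part from their selection on these samples. For *Il18* the difference was -2.39 in Col286 and -2.23 in Col291, for *Spry4* 1.65 and 1.86, and for *Ccna2* 0.84 and 0.83. How far AC donors differ from each other could not be measured, since there was 1.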

How the data were processed

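RNA of mouse colon organoids was sequenced in 28 samples of 7 donor mice. Per the submitters' processing notes, reads were trimmed with Trimmomatic 0.39 and aligned with STAR 2.5.2b to GRCm38 (mm10). The authors deposited raw read counts per gene, whole numbers without normalization, for 13519 genes, of which 13479 had an Ensembl identifier found in GENCODE M21. The counting program, its strand setting and its treatment of reads shared by paralogs are not given in the sources used here. Duplicate numbers and lines came from the sample labels, and 1 label without a number (Col291 with 4-HT) was taken as duplicate 1. The labels and the paper's RNA sequencing methods give 3.5 µM 4-HT, while the methods for organoid culture give another dose.

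All 28 samples entered 1 model with 8 groups (genotype by treatment), fitted in edgeR 4.0.16 (R 4.3.3) after TMM normalization and tested by its quasi-likelihood F-test, so that the groups share an estimate of the spread (biological coefficient of variation 0.191). A gene passed at a Benjamini-Hochberg adjusted p under 0.01, adjusted across the whole table. Standard errors were computed from the fold change and the F statistic. As alternatives to the main test, limma-voom from limma 3.58.1 (the study's methods name limma) and the Wald test of DESeq2 1.42.0 were run. The EtOH comparison, the difference of the 4-HT changes, BPAC against PAC, the difference of both effects and Col291 against Col286 (14 groups of line and treatment) were contrasts of the same kind. A prior count of 2 was used for log2 CPM in the principal components. The deposited counts carry no molecular identifiers, so intervals and floors cover counting error only.

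Same-numbered duplicates deviated together: the differences between duplicates 2 and 1 correlated across genes with r of 0.29 (Col288 and Col286), 0.24 (Col288 and Col291) and 0.36 (Col286 and Col291), and genes are not independent replicates. The duplicate number was therefore also fitted as a replicate block.

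Genes were named as the 15 largest differences in each direction past the threshold with a mean of at least 10 counts and no overlap between groups, the targeted genes, sex-linked genes, and up to 4 genes per list by adjusted p. Genes outside this rule are said to be named after their values were seen. Lists and members were chosen with earlier results of these data known. Lists are described by counts and medians, with no test. Promoters came from RefSeq on GRCm38.p6. The scripts were tested on simulated data. Alternatives are given below, and 1 of them, without 2 PAC libraries, was chosen after seeing the data. Results for some genes are not reported here.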

Additional observations from a re-analysis of the deposited data

Results flagged for a closer look

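In 6 of the 204 named genes (2.94%), 1 of the 4 BAC samples with 4-HT stood apart from the other 3 by Dixon's test, which chance gives in about 1 of 20 groups. *Casp12* was at 0.118 CPM in Col286 duplicate 1, against 0.0257 to 0.035 CPM in the others. *Bid* was at 40.7 CPM in Col286 duplicate 1, against 38.1 to 38.3 CPM. *Egf* was at 0.882 CPM in Col286 duplicate 2, against 0.257 to 0.354 CPM. *Rrm1* was lowest in Col286 duplicate 2, at 271 CPM against 286 to 289 CPM. *Cyp1a1* was at 24 CPM in Col291 duplicate 2, against 13.2 to 14.6 CPM. *Gsdmc4* was at 2.21 CPM in Col291 duplicate 2, against 0.591 to 0.781 CPM.

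For 16 named genes the 4-HT change of BAC differed from that of AC by the edgeR contrast of both changes. The difference in log2 fold change was positive for *Ly6c2* (7.66), *Ly6c1* (2.08), *Ly6g* (1.79), *Cav2* (1.55), *Psat1* (1.05), *Asns* (0.97) and *Fzd1* (0.94). It was negative for *Cyp2c68* (-4.05), *Ccl6* (-2.98), *Tnfsf10* (-2.95), *Il18* (-2.56), *Hsd11b2* (-2.01), *Tlr2* (-1.48), *Pigr* (-1.4), *Slc5a1* (-1.34) and *Dhrs3* (-1.18). AC had 2 cultures of 1 donor per treatment, and donor and genotype cannot be told apart here.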

How the results depend on the processing

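AC has 1 donor, so no alternative separates allele from donor. The p-values of the main fit rest on the spread within groups of genotype and treatment. That spread holds donor differences of the other genotypes but none from AC. For BAC against AC with 4-HT, 1505 genes passed, 3113 at an adjusted p of 0.05, 2811 with the replicate block, 596 without line Col286 and 402 without line Col291. Calls were lost with duplicate 2 alone, a fit that leaves 1 AC sample and whose count is not given. Leaving out 1 sample gave 328 to 1250. The other 14 alternatives, among them limma-voom (1684), DESeq2 (2187), thinning to the smallest total (1360) and both cultures of a line summed (1033), stayed within 1.5 times. With EtOH the count of 0 became 3 at 0.05 and 14 by DESeq2, and leaving out 1 sample gave 0. For the difference of the 4-HT changes, 29 became 1 with cultures summed (none of the 29), 160 at 0.05, 173 by DESeq2, 143 with the replicate block, and 2 to 34 with 1 sample left out. BPAC against PAC gave 2187, 3862 at 0.05, 3461 with the replicate block and 1415 to 2128 with 1 sample left out. The difference between both effects became 1 by DESeq2 and was 0 with any sample left out. Col291 against Col286 gave 2, 8 by DESeq2, 1 by limma-voom, 1 with thinning and 0 with 1 sample left out. The replicate block ended no call of a named gene.

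No named gene that passed changed sign. Among those that did not pass, the sign turned for *Bax* (-0.05 in duplicate 2 alone), *Bmpr1a* (-0.24 to 0.23 with 1 sample left out), *Braf* (-0.29 to 0.02, likewise), *Ddx3y* (0.04 without Col286), *Krt19* (0.2 in duplicate 1 alone, -0.16 to 0.01 with 1 sample left out), *Xist* (-1.5 without Col286), *Spry2* (-0.03 to 0.1 with 1 sample left out, -0.02 with library size alone), *Lgr5* (0.03 with cultures summed, 0.13 in duplicate 1 alone, 0.08 without Col291, -0.1 to 0.04 with 1 sample left out) and *Pecam1* (1.34 in duplicate 2 alone, 0.41 with thinning, 0.27 without Col286, and -0.62 to 0.98 with 1 sample left out). The causes were not tested. Few counts in 1 of the groups limit the values of *Krt13*, *Alppl2* and *Flrt2*.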
